A study of Mus musculus with 17 samples.

Results

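The neurotrophins and their receptors measured here are 7 genes of the 55359 in the table of expected counts, namely the ligands Bdnf and Ntf3, the tyrosine kinase receptors Ntrk2 and Ntrk3, the p75 receptor Ngfr, and the sorting receptors Sort1 and Sorcs2. They were taken as the rows whose Ensembl identifier carries one of these symbols in the GENCODE mouse annotation, and each symbol matched 1 row. The study asked how osteocalcin (Ocn), a hormone made by bone-forming cells, acts during development when it comes from the mother or from the pup. RNA was sequenced from testes (2 WT, 3 Ocn+/- and 3 Ocn-/- libraries) and forebrain (3 libraries of each genotype) of male pups at postnatal day 1. All pups belonged to the Ocn_GK strain on the 129/SvEv background, in which the gene was disrupted by homologous recombination in every cell, from conception on. WT pups were born to WT mothers, whereas the Ocn+/- and the Ocn-/- pups were all born to Ocn-/- mothers, so that the genotype of the pup, the genotype of the mother and the litter cannot be told apart in any comparison with WT. The labels call the brain tissue hippocampus, whereas the methods describe forebrain that includes the hippocampus, and the second name is kept here.

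Neurotrophins are secreted growth factors that are made as longer pro-forms and cleaved to mature proteins. The mature forms act through the Trk receptors, with BDNF and neurotrophin-4 (encoded by Ntf5) binding TrkB (Ntrk2) and neurotrophin-3 (Ntf3) binding mainly TrkC (Ntrk3). The pro-forms bind p75 (Ngfr) together with sortilin (Sort1) or SorCS2 (Sorcs2), a receptor pair linked to cell death and to retraction of growth cones, and sortilin also sorts pro-BDNF inside the cell. In the brain these factors guide survival of neurons, growth of dendrites and plasticity of synapses. Bdnf was included because it has been described as a gene that osteocalcin raises in the brain.

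The promoters of the members are shown because the counts sum all transcripts of a gene, whatever start they use. Start regions from RefSeq on the build GRCm38.p6, each from 250 bases before to 50 bases after a start, were used here for 4 of the 7 members, with 7 separate starts for Bdnf, 2 for Ntf3, and 1 each for Ntrk2 and Ngfr. Those of Ntrk3, Sort1 and Sorcs2 were not used here. Printed below are those of Ntrk2 and Ngfr, the receptors with the lowest p-values among the members in Ocn-/- testes, the more upstream of both starts of Ntf3, and the third of the 7 starts of Bdnf. Capitals mark the motifs searched on both strands, which were the GC box (GGGCGG), the core of the cAMP response element (TGACG) and the E-box CACGTG. These motifs did not overlap each other in the printed regions.
Ntrk2 (chr13:58806319-58806618, plus strand): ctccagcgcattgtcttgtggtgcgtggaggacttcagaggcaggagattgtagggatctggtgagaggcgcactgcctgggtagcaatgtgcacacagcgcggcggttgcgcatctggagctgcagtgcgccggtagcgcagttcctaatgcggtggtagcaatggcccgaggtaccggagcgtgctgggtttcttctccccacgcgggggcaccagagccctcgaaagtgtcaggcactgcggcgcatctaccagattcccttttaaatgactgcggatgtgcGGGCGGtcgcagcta
Ngfr (chr11:95587649-95587948, minus strand): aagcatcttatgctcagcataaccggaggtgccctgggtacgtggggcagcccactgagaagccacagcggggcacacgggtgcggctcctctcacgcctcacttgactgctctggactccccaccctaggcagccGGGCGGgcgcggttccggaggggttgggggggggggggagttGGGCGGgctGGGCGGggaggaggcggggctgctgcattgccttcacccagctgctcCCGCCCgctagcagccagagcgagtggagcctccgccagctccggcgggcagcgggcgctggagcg
Ntf3 (chr6:126166695-126166994, minus strand): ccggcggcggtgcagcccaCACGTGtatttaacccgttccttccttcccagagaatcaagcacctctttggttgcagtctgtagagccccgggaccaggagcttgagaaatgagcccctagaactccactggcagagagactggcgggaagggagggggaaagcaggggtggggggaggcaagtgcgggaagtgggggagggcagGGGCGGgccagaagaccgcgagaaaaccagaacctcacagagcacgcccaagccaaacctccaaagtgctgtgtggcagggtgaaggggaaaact
Bdnf (chr2:109692186-109692485, plus strand): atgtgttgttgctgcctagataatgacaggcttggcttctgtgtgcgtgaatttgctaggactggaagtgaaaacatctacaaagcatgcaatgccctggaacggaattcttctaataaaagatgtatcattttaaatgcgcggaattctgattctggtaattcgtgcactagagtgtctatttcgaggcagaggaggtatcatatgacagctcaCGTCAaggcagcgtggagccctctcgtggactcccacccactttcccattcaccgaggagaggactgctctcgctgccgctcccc
The region of Ngfr held 4 GC boxes and that of Ntrk2 held 1, and at least 1 GC box was found in 35.7% of the 32851 start regions of the RefSeq table. The third start of Bdnf was the one with a cAMP response core among its 7 starts, a motif present in 20.8% of all start regions. The Ntf3 region held 1 E-box and 1 GC box, and an E-box was found in 7.15% of all regions. These matches describe the letters only. The gene counts cannot tell the 7 starts of Bdnf apart.

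On GRCm39, the build of the counts, the ligand genes lie at chr2:109505045-109557475 (Bdnf, plus strand) and chr6:126078375-126143873 (Ntf3, minus strand). The Trk receptor genes lie at chr13:58954176-59281784 (Ntrk2, plus) and chr7:77825707-78387760 (Ntrk3, minus). Ngfr lies at chr11:95459638-95478561 (minus), Sort1 at chr3:108191285-108268842 (plus) and Sorcs2 at chr5:36174509-36555545 (minus). All 7 are annotated as protein-coding, with 2 transcripts for Ngfr, 3 for Ntf3, 9 for Sorcs2, 18 each for Bdnf and Sort1, 38 for Ntrk3 and 40 for Ntrk2.

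The libraries held 7302401 to 8289015 counts each in testes and 6518151 to 14621584 counts each in forebrain. The osteocalcin gene Bglap had between 0 and 5 counts in every library and Bglap2 had 0 in all 17, so its level could not check the genotype labels. Forebrain WT 3 stood apart with the lowest total and 8.5% of its counts on an 18S ribosomal RNA gene, against 0.261% to 0.805% in the other forebrains. The values of the members that changed most without it are given below. In forebrain all 12 neuron markers and all 6 hippocampus markers were detected in every genotype, with a summed level of the neuron markers of 6790 to 7470 CPM (a gene's counts relative to the scaled total of its library) against 126 to 168 CPM in testes. In testes all 8 Sertoli cell markers, all 7 Leydig cell markers and all 8 germ cell markers were detected.

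Levels are given as CPM scaled with the trimmed mean of M-values (TMM), and changes as log2 fold changes with their standard error (SE) from edgeR's quasi-likelihood test, with p-values adjusted by the method of Benjamini and Hochberg over all genes tested in a tissue. A gene was called at an adjusted p below 0.05. The labels do not say whether the replicates of a genotype came from separate litters, so the p-values measure the spread between these libraries. The comparisons of Ocn+/- and of Ocn-/- with WT share the WT libraries. Groups of so few libraries can lie apart by chance, and the share of all genes that did so was not counted. In these whole tissues fewer cells of a type and less RNA per cell cannot be told apart.

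Among the ligands, Bdnf had low counts in both tissues and no difference between genotypes was detectable at this depth. In forebrain its level was 4.8, 2.53 and 4.27 CPM in the 3 WT libraries, 6.36, 3.1 and 3.76 CPM in Ocn+/- and 3.03, 6.03 and 4.44 CPM in Ocn-/-, from 21.78 to 94 counts. The highest library was an Ocn+/- and the lowest a WT, and the 3 genotypes overlapped. The log2 fold change against WT was 0.18 (95% interval -0.50 to 0.86, adjusted p = 0.797) in Ocn+/- and 0.22 (-0.47 to 0.90, adjusted p = 0.746) in Ocn-/- by edgeR. The Ocn+/- estimate became -0.18 without Ocn+/- 1 and -0.05 without WT 2, and the Ocn-/- estimate became -0.06 without Ocn-/- 2 and -0.02 without WT 2. In testes Bdnf was at 1.68 and 1.64 CPM in WT, 1.46, 1.89 and 0.55 CPM in Ocn+/- and 1.42, 1.78 and 2.53 CPM in Ocn-/-, from 4 to 20 counts. The mutant libraries lay on both sides of WT, with log2 fold changes of -0.34 (95% interval -1.56 to 0.89) in Ocn+/- and 0.20 (-0.99 to 1.39) in Ocn-/-. Part of these counts may be shared, since 13.5% of the exon bases of Bdnf lie opposite exons of the long non-coding RNA Gm45346, and the sources used here do not state whether counting used the strand.

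Ntf3, the ligand of TrkC, was at 4.96 CPM or more in every forebrain and was close to absent from testes. In forebrain it was at 6.56, 6.68 and 6.94 CPM in WT, 7.44, 4.96 and 7.39 CPM in Ocn+/- and 9.26, 9.24 and 10.6 CPM in Ocn-/-. All 3 Ocn-/- libraries lay above all 6 others. The log2 fold change of Ocn-/- against WT was 0.53 (SE 0.20, unadjusted p = 0.0132, adjusted p = 0.114) and that of Ocn-/- against Ocn+/- was 0.55 (SE 0.19, unadjusted p = 0.00807, adjusted p = 0.999) by edgeR, so Ntf3 was not called in either, and the Ocn+/- libraries differed from WT by -0.02 (SE 0.20). Over the alternatives the change of Ocn-/- against WT ran from 0.47 to 0.63 and its adjusted p from 0.0799 to 0.23. In testes Ntf3 had 1 to 6 counts per library, too few to pass the filter on low counts, and was not tested between genotypes there. Its reads can be shared as well, since 12.3% of its exon bases lie opposite exons of the non-coding RNA Gm67883.

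Ntf5, the second ligand of TrkB and not a member, was detected with 125 to 201 counts in each testis library, whereas 7 of the 9 forebrain libraries had 0 counts and the other two had 1 count each. In testes Ntf5 was at 25.2 ± 0.159 CPM (SD, n = 2) in WT, 18.3 ± 1.87 CPM (n = 3) in Ocn+/- and 19.4 ± 4.54 CPM (n = 3) in Ocn-/-. All 6 mutant libraries were below both WT libraries, but the mean change of -0.42 (SE 0.18, adjusted p = 0.143 by edgeR) was not called.

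**Figure D1:**
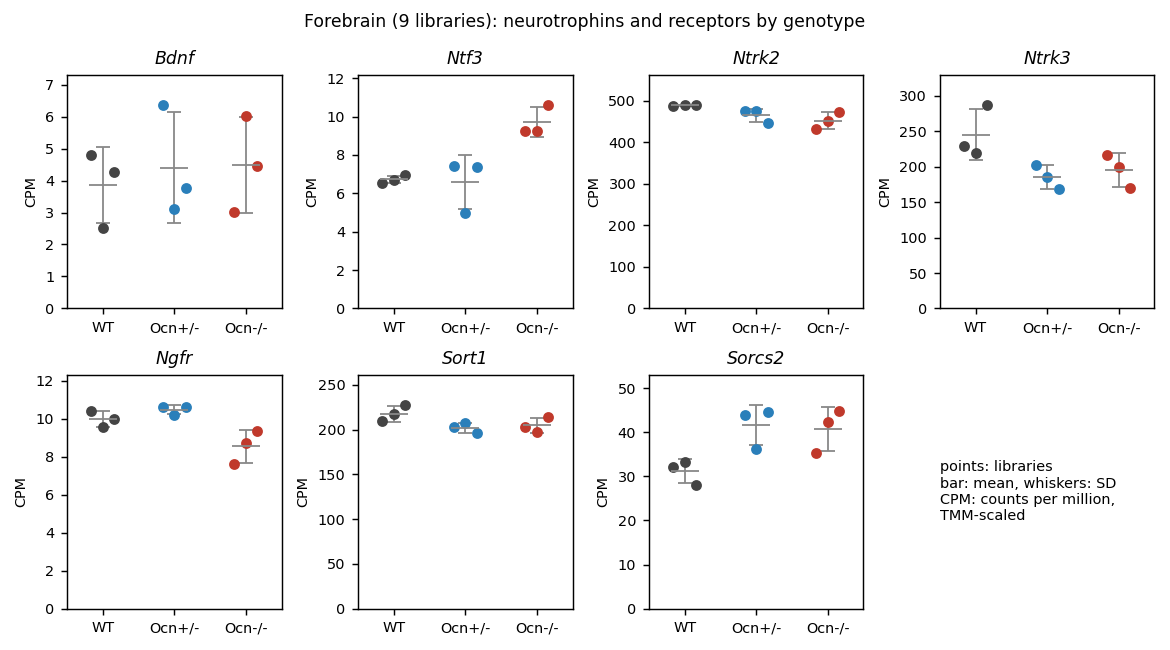
Levels of the 7 members in the 9 forebrain libraries, in CPM on linear axes from 0, with a point per library, a bar at the mean and whiskers of 1 SD for each genotype. Ntrk2 and Ntrk3 were lower and Sorcs2 higher in all 6 mutant libraries than in the 3 WT libraries. Ntf3 was highest and Ngfr lowest in the 3 Ocn-/- libraries.

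Of the Trk receptors, Ntrk3 was lower in the mutant forebrains. TrkC transduces the signal of neurotrophin-3 and also occurs as a truncated form without kinase. Ntrk3 was at 229, 220 and 287 CPM in WT, 203, 185 and 169 CPM in Ocn+/- and 216, 200 and 170 CPM in Ocn-/- forebrains. Every mutant library was below every WT library, and the gap between the lowest WT library (220) and the highest mutant library (216) was small beside the distance of WT 3 from the other WT libraries. The log2 fold change by edgeR was -0.40 (SE 0.11, adjusted p = 0.0494) in Ocn+/- and -0.33 (SE 0.11, adjusted p = 0.0864) in Ocn-/-, and -0.36 (SE 0.09, adjusted p = 0.0228) for the mean of both mutant genotypes, a level 22.2% below WT. Without WT 3, the library that stood apart, the mean change of Ntrk3 was -0.24 (adjusted p = 0.175) and that in Ocn-/- was -0.20 (adjusted p = 0.345). The mean change was -0.26 (adjusted p = 0.0732) when libraries were scaled by library size alone. The call in Ocn+/- was lost when any of WT 1, WT 3, Ocn+/- 1, Ocn+/- 2, Ocn+/- 3 or Ocn-/- 2 was left out, with adjusted p from 0.0545 to 0.222. It was also lost with the replicate number as a block (adjusted p = 0.0577), with RLE scaling (0.0537) and with library size alone (-0.30, adjusted p = 0.108). The change in Ocn-/- was called in the fit with no filter on low counts (-0.31, adjusted p = 0.00963).

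In testes Ntrk3 varied too widely between libraries of a genotype for a test to call it. It was at 37.7 and 70.8 CPM in WT, 39.2, 57.4 and 48.8 CPM in Ocn+/- and 33.3, 31.3 and 11 CPM in Ocn-/-. The Ocn-/- libraries were the 3 lowest, and Ocn-/- 3 with 87 counts was far below the other two. The log2 fold change of Ocn-/- against WT was -1.10 (95% interval -2.35 to 0.14, adjusted p = 0.265 by edgeR), and that of Ocn+/- was -0.16 (-1.39 to 1.06). The WT libraries differed from each other as well, and the change in Ocn-/- was -1.48 without WT 1, -0.56 without WT 2 and -0.75 without Ocn-/- 3, none of them called. The mean change of -0.63 was -1.01 without WT 1 and -0.09 without WT 2.

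Ntrk2, the receptor of BDNF and neurotrophin-4, showed its lower levels in mutant testes. It was at 82.9 and 98.4 CPM in WT, 57.9, 88.3 and 65.5 CPM in Ocn+/- and 61.2, 58.1 and 56.9 CPM in Ocn-/-. The 3 Ocn-/- libraries lay close together and below both WT libraries, while Ocn+/- 2 lay between the WT libraries. By edgeR the log2 fold change was -0.36 (SE 0.16, adjusted p = 0.16) in Ocn+/-, -0.63 (SE 0.16, adjusted p = 0.0297) in Ocn-/- and -0.49 (SE 0.14, adjusted p = 0.0351) for the mean of both, which is 29% below WT. With a single WT library left, assumed to vary like the other groups, the mean change of Ntrk2 was -0.60 without WT 1 (adjusted p = 0.113) and -0.35 without WT 2 (adjusted p = 0.448). The mean change of Ntrk2 also missed the threshold without Ocn-/- 1 (adjusted p = 0.0611), Ocn+/- 1 (0.0675) or Ocn+/- 3 (0.0708), under the replicate block (adjusted p = 0.0541) and with library size alone (-0.42, adjusted p = 0.0642). The call in Ocn-/- was lost without WT 1 (adjusted p = 0.0818), WT 2 (0.417), Ocn-/- 1 (0.0782) or Ocn-/- 3 (0.0623). Without Ocn+/- 2 the change of Ntrk2 in Ocn+/- testes was -0.54 and was called (adjusted p = 0.0204).

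In forebrain Ntrk2 varied little between libraries. It was at 488, 489 and 489 CPM in WT, 474, 474 and 447 CPM in Ocn+/- and 431, 450 and 472 CPM in Ocn-/-. All 6 mutant libraries were below WT, but the mean log2 fold change was only -0.09 (95% interval -0.22 to 0.03, adjusted p = 0.351 by edgeR), and it was 0.00 under library size alone (adjusted p = 0.992).

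**Figure D2:**
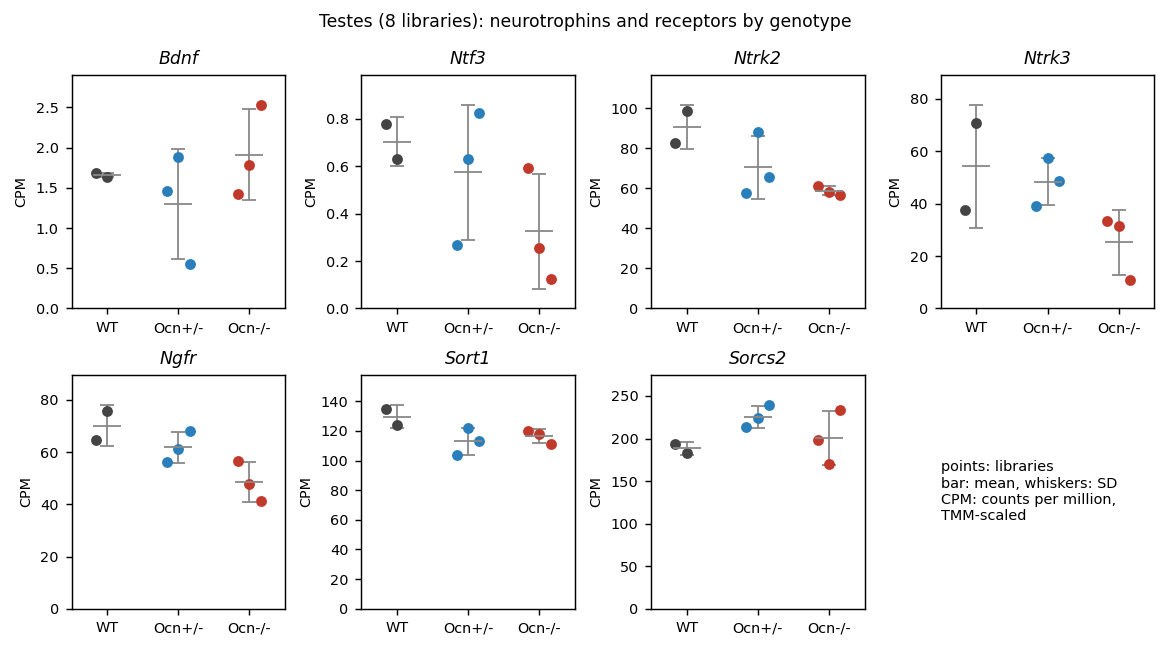
Levels of the 7 members in the 8 testis libraries, in CPM on linear axes from 0, with a point per library, a bar at the mean and whiskers of 1 SD for each genotype. Ntrk2, Ntrk3, Ngfr, Sort1 and Ntf3 were lower in the 3 Ocn-/- libraries than in both WT libraries, and Ntf3 stayed below 1 CPM. Of these only Ntrk2 was called in Ocn-/- against WT, and Ntf3 was not tested.

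Ngfr encodes p75, which binds all neurotrophins and, with sortilin or SorCS2, their pro-forms, and it is also known from Schwann cells and other non-neuronal cells. In testes it was at 64.5 and 75.6 CPM in WT, 56.2, 61.1 and 68.2 CPM in Ocn+/- and 56.7, 47.7 and 41.2 CPM in Ocn-/-. The Ocn-/- libraries were below WT, and Ocn+/- 3 lay between the WT libraries. The log2 fold change by edgeR was -0.53 (SE 0.15, adjusted p = 0.0508) in Ocn-/-, just above the threshold, and -0.18 (SE 0.15, adjusted p = 0.481) in Ocn+/-. The value of Ngfr in Ocn-/- passed the threshold in 6 of 17 alternatives, among them DESeq2 (adjusted p = 0.0332), edgeR's likelihood ratio test (0.0256) and the fit without Ocn-/- 1 (0.0487), and its adjusted p ran from 0.0112 to 0.485. In forebrain Ngfr was at 10.4, 9.56 and 9.96 CPM in WT, 10.6, 10.2 and 10.6 CPM in Ocn+/- and 7.59, 8.71 and 9.33 CPM in Ocn-/-. The Ocn-/- libraries were the 3 lowest, with a change of -0.22 (SE 0.16, adjusted p = 0.453 by edgeR) against WT and of -0.29 (SE 0.16, unadjusted p = 0.0862) against Ocn+/-.

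Sort1, the sorting receptor of pro-neurotrophins, differed little between genotypes. In forebrain it was at 209, 217 and 227 CPM in WT, 203, 207 and 196 CPM in Ocn+/- and 203, 197 and 214 CPM in Ocn-/-. In testes it was at 135 and 124 CPM in WT, 104, 122 and 113 CPM in Ocn+/- and 120, 118 and 111 CPM in Ocn-/-. The Ocn-/- libraries overlapped WT in forebrain, and in the other comparisons the mutant libraries lay just below WT. The mean change by edgeR was -0.10 (95% interval -0.23 to 0.03, adjusted p = 0.343) in forebrain and -0.18 (-0.40 to 0.04, adjusted p = 0.289) in testes. Reads of Sort1 can also be shared, since 21.4% of its exon bases lie opposite exons of the non-coding RNA Gm12522.

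Sorcs2, the co-receptor of p75, was higher in the mutant forebrains. It was at 32, 33.3 and 28.1 CPM in WT, 43.8, 36.3 and 44.5 CPM in Ocn+/- and 35.2, 42.2 and 44.9 CPM in Ocn-/-. All 6 mutant libraries were above all 3 WT libraries. The log2 fold change by edgeR was 0.41 (SE 0.12, adjusted p = 0.0623) in Ocn+/- and 0.38 (SE 0.12, adjusted p = 0.0719) in Ocn-/-, neither called alone, and 0.40 (SE 0.11, adjusted p = 0.0264) for the mean of both, a level 31.7% above WT. The mean change of Sorcs2 was 0.34 without WT 3 (adjusted p = 0.136), 0.42 without WT 1 (0.0675), 0.44 without WT 2 (0.0534) and 0.37 without Ocn+/- 3 (0.0544), and was not called in these fits. Sorcs2 was called in Ocn+/- without Ocn-/- 1 (adjusted p = 0.0493) or Ocn-/- 3 (0.0476), and in Ocn-/- without Ocn-/- 1 (0.0466). It was called in Ocn+/- by DESeq2 (adjusted p = 0.0399), by the likelihood ratio test (0.0409) and with only the genotypes compared (0.0447), and in both genotypes with no filter on low counts (0.0168 and 0.0249). In testes Sorcs2 was at 194 and 183 CPM in WT, 213, 224 and 239 CPM in Ocn+/- and 198, 170 and 233 CPM in Ocn-/-. The Ocn+/- libraries were above WT, whereas those of Ocn-/- lay on both sides, and the mean change of 0.17 (SE 0.12, adjusted p = 0.386 by edgeR) was not called.

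**Figure D3:**
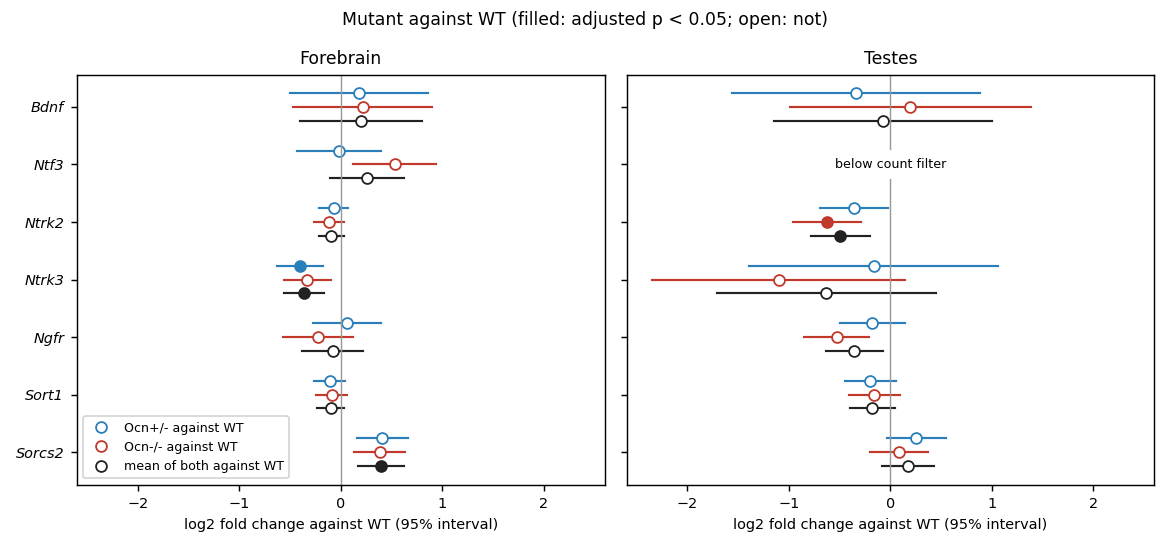
Log2 fold change of each member against WT with its 95% interval, on a linear axis, for Ocn+/-, Ocn-/- and the mean of both, in forebrain (left) and testes (right); filled points passed an adjusted p of 0.05. The intervals of Bdnf in both tissues and of Ntrk3 in testes were the widest, those of Ntrk2 and Sort1 in forebrain the narrowest.

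Counted over the members, the calls were few. In forebrain 1 of 7 members was called in Ocn+/- against WT, where 3.89% of all genes tested were called, 0 of 7 in Ocn-/- against WT (4.85% of all genes) and 0 of 7 between the mutant genotypes (0.00622%, which is 1 gene). For the mean of both mutant genotypes 2 of 7 were called, 1 in each direction, beside 8.68% of all genes. In testes, where 6 members could be tested, 0 were called in Ocn+/- against WT (8.25% of all genes), 1 in Ocn-/- against WT (5.64%), 0 between the mutant genotypes (0%, with 1881 genes at an unadjusted p below 0.05) and 1 for the mean of both (9.94%). At an unadjusted p below 0.05 the members counted 3 of 7 in forebrain Ocn-/- against WT (21.7% of all genes) and 1 of 7 between the mutant forebrains (3.2%). In testes they counted 1 of 6 both for Ocn+/- against WT (25.9% of all genes) and for Ocn-/- against Ocn+/- (11.5%). The DESeq2 test called 0 members in the comparisons where edgeR called 0. The median change of the members for the mean of both genotypes was -0.08 in forebrain and -0.27 in testes, beside 0.01 and -0.00 over all genes. Without forebrain WT 3, 0 members and 320 genes were called for the mean contrast in forebrain, where 1395 genes were called with it. In testes 125 genes were called without WT 2, against 1626 with all libraries. Scaling by library size alone raised the share of higher genes among all calls of the mean contrast from 37.9% to 64.6% in forebrain and from 45.4% to 65.5% in testes. The members called with TMM scaling (Ntrk3 and Sorcs2 in forebrain, Ntrk2 in testes) kept their directions. Of these only Sorcs2 was still called with library size alone. The uncalled change of Ntrk2 in forebrain turned from -0.09 to 0.00.

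No member's change was shown to differ between the tissues. The difference of the mean mutant change, forebrain minus testes, was called for 0 of 7 members by edgeR, with 2.96% of all genes called, and for 1 of 7 at an unadjusted p below 0.05, beside 18.7% of all genes. That member was Ntrk2, with a difference of 0.41 (SE 0.15, unadjusted p = 0.0108, adjusted p = 0.131). It was called only in the fit without testes Ocn+/- 2 (0.51, adjusted p = 0.0132). DESeq2 called 0 members as well. The change of Sorcs2, called in forebrain and not in testes, differed by 0.24 (SE 0.16, adjusted p = 0.451), and that of Ntrk3 by 0.28 (SE 0.42, adjusted p = 0.783).

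The levels of all 7 members differed between the tissues beyond the spread of the libraries, as did those of 84.4% of all genes. Of the members, 5 were higher in forebrain and 2 in testes. By edgeR in a joint fit, the log2 difference, forebrain minus testes, averaged over genotypes, was 4.18 (SE 0.23) for Ntf3, 3.02 (SE 0.07) for Ntrk2, 2.68 (SE 0.20) for Ntrk3, 1.73 (SE 0.25) for Bdnf and 1.13 (SE 0.05) for Sort1, with adjusted p from 7.42e-22 to 7.96e-07. The p75 receptor and SorCS2, one of its partners, went the other way, with -2.30 (SE 0.08) for Ngfr and -2.12 (SE 0.07) for Sorcs2. Of the receptors of the pro-forms, Ngfr and Sorcs2 were thus higher in testes and Sort1 in forebrain. Both ligands among the members were higher in forebrain, whereas Ntf5, whose counts are given above, was higher in testes (adjusted p = 2.49e-18). With library size alone the median of all genes moved from -0.09 to -0.40, and the differences of the members kept their direction in all alternatives that tested them.

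Set against length, the members fell into a different order in each tissue. Per kilobase of the union of a gene's exons, and with both tissues scaled together, the forebrain order was Sort1 with 28.2 CPM per kilobase (26.4 to 30.8 over the 9 libraries), Ntrk2 with 17.4 (16 to 18.2), Ntrk3 with 7.41 (5.98 to 10.2), Ntf3 with 4.92 (3.17 to 6.77), Sorcs2 with 4.66 (3.47 to 5.51), Ngfr with 3.11 (2.45 to 3.44) and Bdnf with 0.625 (0.368 to 0.942). The ranges of Ntrk3 and Ntf3 and of Ntf3 and Sorcs2 overlapped, and the other neighbours were separate. Within each library Ntrk3 was above Ntf3 except in Ocn-/- 3 (6 against 6.77). Ntf3 was above Sorcs2 in the WT and Ocn-/- libraries and below it in those of Ocn+/-. In testes the order was Sorcs2 with 20.3 (16.5 to 23.2 over the 8 libraries), Ngfr with 15.1 (10.7 to 19.5), Sort1 with 12.8 (11.1 to 14.6), Ntrk2 with 2.11 (1.7 to 2.93), Ntrk3 with 1.16 (0.315 to 2.01), Ntf3 with 0.262 (0.0653 to 0.417) and Bdnf with 0.19 (0.0636 to 0.299). There each range overlapped that of the next member, except for Sort1 and Ntrk2, between which the gap was wide. The genes that encode the receptors of the pro-forms thus filled the first 3 places in testes.

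The length used matters for the Trk receptors, whose annotated exons add up to 29922 bases for Ntrk2 and 31340 for Ntrk3, while their longest transcripts have 9050 and 19838 bases. Per kilobase of the longest transcript Ntrk2 led in forebrain with 57.5 CPM per kilobase, ahead of Sort1 with 33, and Sorcs2 (7.07) passed Ntf3 (5.36). In testes the same length left Sorcs2 (30.8), Ngfr (15.1), Sort1 (14.9), Ntrk2 (6.97) and Ntrk3 (1.84) in place, and put Bdnf (0.327) before Ntf3 (0.285). Of the 7 members, 3 held their rank in forebrain and 5 in testes. Reads from truncated and full-length receptors were counted together.

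**Figure D4:**
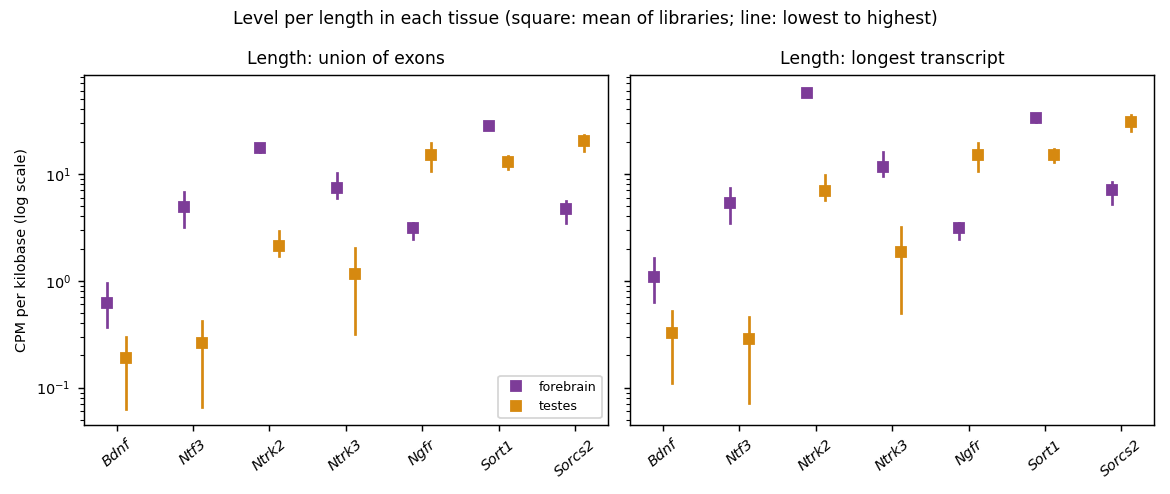
Level of each member per kilobase in forebrain and testes on a logarithmic axis, with the union of exons (left) or the longest transcript (right) as length; squares are means over all libraries of a tissue and lines run from the lowest to the highest library. Ngfr and Sorcs2 were higher in testes and the other 5 members in forebrain with either length.

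The genes whose log2 CPM followed a member most closely over the libraries of a tissue were in none of the pathway lists used here. For Bdnf they were Numb (Pearson r = 0.877), Inpp5j (0.874) and Map7d2 (0.869) over the 9 forebrains, and Rhebl1 (0.954), Gm4349 (0.944) and Frrs1 (0.938) over the 8 testes. For Ntrk3 in forebrain they were Cep170 (0.985), Far1 (0.982) and Cpsf6 (0.98), for Sorcs2 in forebrain Puf60 (0.985), Insyn1 (0.982) and Lmo2 (0.982), and for Ntrk2 in testes Dnajc6 (0.973), Fam118a (0.965) and Agtr2 (0.965). These values describe so few libraries among at least 11916 genes, and the libraries fall into the same genotype groups and differ in depth, with forebrain WT 3 apart from the rest. When a library was left out, 0 to 1 of the 3 genes named for Bdnf in forebrain stayed among the first 3, and 0 to 2 of those in testes.

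The pathway around the members was followed with lists of other genes, counted for the mean of Ocn+/- and Ocn-/- against WT by edgeR, a contrast in which 8.68% of all genes tested were called in forebrain and 9.94% in testes. Of 9 further receptors and co-receptors, 0 rose and 1 fell in forebrain, and 0 were called in testes. The one was Kidins220, a scaffold that binds Trk receptors and p75, which fell by 0.22 on the log2 scale (SE 0.07, adjusted p = 0.0411), from 775 ± 51.7 CPM (SD, n = 3) in WT to 669 ± 34.2 in Ocn+/- and 661 ± 27.9 in Ocn-/-, and which was not called without WT 3. The median of this list was 0.03 in forebrain and -0.11 in testes. Calls of list genes for the mean contrast in testes, where WT had 2 libraries, were not checked with a library left out.

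Among the enzymes that process the pro-forms and their inhibitors, 1 of 10 tested rose and 1 fell in forebrain, and 0 of 9 rose and 2 fell in testes, with list medians of 0.07 and -0.23. Pcsk2, a convertase of neuroendocrine cells, rose by 0.39 (SE 0.11, adjusted p = 0.0381) in forebrain. Serpini1, which encodes neuroserpin, an inhibitor of tissue plasminogen activator, fell in both tissues, by 0.24 (SE 0.07, adjusted p = 0.0394) in forebrain and by 0.88 (SE 0.18, adjusted p = 0.00771) in testes. In testes Cpe, carboxypeptidase E, which also serves in the sorting of pro-BDNF, fell by 0.36 (adjusted p = 0.0459), all by edgeR. Without WT 3 no gene of this list was called in forebrain.

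Of the Trk adaptors and kinases, 1 of 43 rose and 1 fell in forebrain, and 3 of 42 rose and 1 fell in testes, with medians of -0.01 and 0.08. Map2k2, the kinase MEK2 of the ERK cascade, rose in both, by 0.38 (SE 0.09, adjusted p = 0.0155) and 0.55 (SE 0.17, adjusted p = 0.0481). In testes the adaptor Sh2b2 rose by 0.83 (adjusted p = 0.0178) and Rps6ka2, a kinase downstream of ERK, by 0.66 (adjusted p = 0.00883) by edgeR. The gene that fell in both tissues, Pdk1 (-0.68 and -0.96), is pyruvate dehydrogenase kinase and not the kinase of the Trk pathway that shares this short name. Without WT 3 Pdk1 was the 1 gene of the list still called in forebrain.

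Downstream of p75, 0 of 21 genes rose and 3 fell in forebrain, and 0 rose and 1 fell in testes, beside 8.68% and 9.94% of all genes called in either direction, with medians of -0.04 and -0.09. The 3 in forebrain were Irak4 (-1.26, adjusted p = 0.0199), a kinase recruited with Irak1, Traf6 (-0.67, adjusted p = 0.00809), an adaptor that binds p75, and Jun (-0.58, adjusted p = 0.00125), a target of the JNK pathway, and of these Jun was called without WT 3. In testes Bcl2l11, which encodes the death factor Bim, fell by 0.51 (SE 0.16, adjusted p = 0.0482) by edgeR.

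Of the genes induced by activity and by neurotrophins, 1 of 18 rose and 6 fell in testes, where 9.94% of all genes were called in either direction, with a list median of -0.36. Nr4a1 and Junb, both immediate-early transcription factors, fell by 1.89 (SE 0.19, adjusted p = 0.000318) and 1.90 (SE 0.25, adjusted p = 0.000297), and Nr4a1 went from 225 ± 2.29 CPM (SD, n = 2) in WT to 71.6 ± 11.5 in Ocn+/- and 51.7 ± 17.1 in Ocn-/- (n = 3 each). Dusp5, Dusp4 and Spry2, inhibitors of the ERK cascade, fell by 1.31, 1.14 and 0.65, and Homer1, a synaptic scaffold, by 0.48. Egr4, a further early transcription factor, rose from 6.34 ± 1.29 CPM in WT to 17.5 ± 1.81 in Ocn+/- and 14 ± 6.78 in Ocn-/- (adjusted p = 0.0356 by edgeR). In forebrain 0 of 20 rose and 1 fell, namely Dusp6 (-0.51, adjusted p = 0.00445), which was also called without WT 3, and the list median was -0.19.

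**Figure D5:**
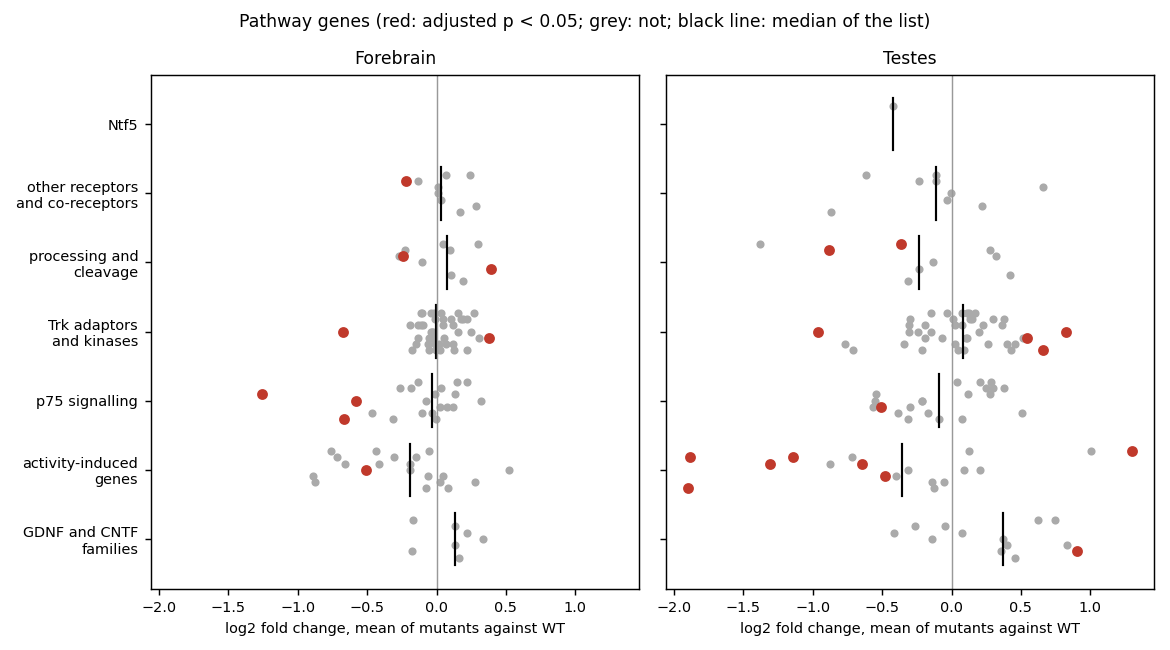
Log2 fold change of the mean of Ocn+/- and Ocn-/- against WT for each tested gene of the lists around the members, in forebrain (left) and testes (right), with red points for an adjusted p below 0.05 and a black line at the median of each list. The lowest values in testes were Junb and Nr4a1 among the activity-induced genes.

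Markers of some other cell types also differed between genotypes, in either direction, and their part in these results was not tested. In testes the summed level of 7 endothelial markers was 599 to 601 CPM in WT and 342 to 420 CPM in the 6 mutant libraries, with 6 of the 7 called lower, and that of 7 Leydig cell markers was 1870 to 1980 CPM against 910 to 1470 CPM, with 1 called (Lhcgr, -1.21). The 9 Schwann cell and nerve markers summed to 122 to 140 CPM in WT and 134 to 172 CPM in the mutants, with 1 of the 5 tested called higher. The lists of 10 astrocyte and radial glia markers and 8 oligodendrocyte lineage markers were made for brain and cannot be read as glia in testes. The astrocyte list summed to 1330 to 1340 CPM in WT testes and 968 to 1210 CPM in the mutants. Of its genes Sox9, also on the Sertoli list, was called higher and Aldh1l1 and Vim lower. The oligodendrocyte lineage list summed to 1190 to 1220 CPM in WT testes and 858 to 1030 CPM in the mutants, with 1 called lower (Pdgfra). In WT forebrain its sum was 248 to 272 CPM. Of 8 mural and meningeal fibroblast markers, 3 were called lower in testes (list median -0.58), at sums of 6280 to 7910 CPM in WT and 4460 to 8440 CPM in the mutants. The 6 erythroid markers, of which 0 of 5 tested were called in testes, summed to 2600 to 6860 CPM in WT and 865 to 3940 CPM in the mutants. Mitochondrial ribosomal RNA took 0.162% and 0.225% of the counts in the WT testes and 0.059% to 0.0873% in the 6 mutant testes, so the groups did not overlap.

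In forebrain 3 of 7 endothelial markers were called lower and 1 (Flt1) without WT 3, at summed levels of 194 to 247 CPM in WT and 157 to 204 CPM in the mutants. The 7 striatum markers summed to 160 to 189 CPM in WT, 181 to 232 CPM in Ocn+/- and 242 to 259 CPM in Ocn-/-. For the mean of both genotypes 2 were called higher and 1 (Drd1) without WT 3, and 3 were called in Ocn-/- against WT and 0 in Ocn+/-. The 5 choroid plexus markers summed to 573 to 736, 571 to 860 and 320 to 531 CPM in WT, Ocn+/- and Ocn-/-, and the 7 thalamus and hypothalamus markers to 99.1 to 129, 99.7 to 118 and 81.4 to 96.4 CPM, with 0 of 5 tested called in each list by edgeR. In these 3 lists, as for Ntf3 and Ngfr, all 3 Ocn-/- forebrains lay apart from the 6 others. Neither Ntf3 nor Ngfr was called in Ocn-/- against WT. How many of all genes or lists lie apart in this way was not counted. Of the 5 erythroid markers tested, 2 were called lower and 1 (Hba-a1) without WT 3, at sums of 522 to 719 CPM in WT, 356 to 407 CPM in Ocn+/- and 486 to 599 CPM in Ocn-/-. The 12 neuron markers summed to 7110 to 7470 CPM in WT and 6790 to 7240 CPM in the mutants, with 2 called higher and 0 without WT 3. The 6 olfactory bulb markers summed to 42.9 to 58 CPM in WT, 119 to 150 CPM in Ocn+/- and 42.1 to 105 CPM in Ocn-/-. None of the 6 was called by edgeR with all libraries, whereas without WT 3 Eomes and Sp8 were called higher in Ocn+/- and Sp8 for the mean of both genotypes. In Ocn+/- forebrains the 6 cortex markers summed to 830 to 887 CPM against 891 to 1080 CPM in WT, the 10 astrocyte and radial glia markers to 1410 to 1460 CPM against 1220 to 1340 CPM, and the 8 oligodendrocyte lineage markers to 294 to 312 CPM against 248 to 272 CPM, and none of the 3 lists overlapped there. In Ocn-/- forebrains they summed to 764 to 1010, 1260 to 1620 and 255 to 299 CPM, and each overlapped WT. For the mean of both genotypes 1 cortex marker was called lower, and 2 astrocyte markers (Gfap and Fabp7) and 1 oligodendrocyte lineage marker (Olig1) higher. Without WT 3 only Gfap of these was called. For that mean, the marker lists not described for a tissue here had 0 to 2 genes called in it.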

How the data were processed

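RNA of 17 libraries from testes and forebrain of pups at postnatal day 1 was analysed. Per the submitters' processing notes, reads were trimmed with Trim Galore 0.6.6, aligned with STAR 2.7.8a and counted with RSEM 1.3.3 on GRCm39. The authors deposited 1 table of RSEM expected counts without any normalization, with 55359 genes, and 9625 of these held a value that was not whole. RSEM divides reads that match several genes, and strand handling is not given in the sources used here. Identifiers were matched to GENCODE (54749 found, 610 not).

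Expected counts were rounded and analysed with edgeR 4.0.16 in R 4.3.3. Each tissue was fitted alone with all 3 genotypes, TMM scaling, the filterByExpr filter by genotype and robust two-sided quasi-likelihood tests without covariates, over 16076 genes in forebrain and 16361 in testes. A joint fit of 17800 genes compared the tissues. Intervals are at 95%. The likeness to a member is Pearson's r of log2 CPM (prior count 2) among genes with a mean of at least 5 CPM. The alternatives were upper quartile and RLE scaling, library size alone, DESeq2 1.42.0, edgeR's likelihood ratio test, no filter, at least 10 counts in every library, a fit of the compared genotypes alone, a replicate block, each library left out in turn, another gene length for the order of levels and a prior count of 0.5 for the likeness. The fits were also run on simulated counts with known changes, and the outcome is not reported here.

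The members and the gene lists were chosen with earlier results of these data known. Named genes are the 7 members, Ntf5, the genes of each pathway list called for the mean of both mutant genotypes in a tissue (at most 10 by size of change), and the 3 genes most like Bdnf and like the members called there. Marker genes were named beside them. Some genes of the pathway are not reported here, and the lists were counted without them. Start regions are from RefSeq on GRCm38.p6.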

Additional observations from a re-analysis of the deposited data

Results flagged for a closer look

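Among the 126 genes of the members and the pathway lists tested in both tissues together, the mean change of both mutant genotypes against WT differed between forebrain and testes for 8 by edgeR's interaction contrast, beside 2.96% of all genes, and none of the 8 is a member. The difference, forebrain minus testes on the log2 scale, was 1.84 for Junb (SE 0.41, adjusted p = 0.017) and 1.7 for Nr4a1 (SE 0.30, adjusted p = 0.0099), which fell in mutant testes (-1.90 and -1.89) and were not called in forebrain (-0.08 and -0.19). It was 0.65 for Serpini1 (adjusted p = 0.024), 0.66 for Mapk10 (adjusted p = 0.0342), 0.57 for Map2k1 (adjusted p = 0.0444) and 0.53 for Homer1 (adjusted p = 0.043). Serpini1 fell in both tissues (-0.24 and -0.88) and Homer1 in testes (-0.48, against 0.04 in forebrain), whereas Mapk10 (0.07 in forebrain and -0.57 in testes) and Map2k1 (0.25 and -0.31) were called in neither. It was -0.64 for Lingo1 (adjusted p = 0.0432) and -0.85 for Sh2b2 (adjusted p = 0.0444), with changes near 0 in forebrain (0.01 and -0.04). In testes Sh2b2 rose (0.83, adjusted p = 0.0178), whereas Lingo1 was not called (0.66, adjusted p = 0.0644). Of the 17 fits that left out 1 library, Nr4a1 was called in 17, Junb in 15, Serpini1 in 14, Mapk10 in 10, Map2k1 in 7, Homer1 in 6, and Lingo1 and Sh2b2 in 4 each. The highest adjusted p without a library was 0.0486 for Nr4a1, 0.189 for Junb, 0.257 for Serpini1, 0.272 for Mapk10, 0.197 for Map2k1, 0.223 for Lingo1 and 0.285 for Sh2b2, each without testes WT 2, and 0.29 for Homer1 without testes WT 1.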

How the results depend on the processing

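The counts of members called rest on values near the threshold. In forebrain Ocn+/- against WT, 1 member was called, 0 with RLE scaling, with library size alone and with the replicate block, and 2 with DESeq2, the likelihood ratio test, no filter or only the genotypes compared. In forebrain Ocn-/- against WT 2 were called with no filter, and for the mean contrast 1 with library size alone. In testes Ocn-/- against WT 2 were called with upper quartile scaling, DESeq2, the likelihood ratio test, no filter or at least 10 counts in every library, where Ngfr joined Ntrk2, and for the mean contrast 0 with library size alone and with the block. Leaving out 1 library gave 0 to 2, 0 to 1 and 0 to 2 members in the 3 forebrain comparisons with WT, 0 to 1 in each of the 3 in testes and 0 to 1 for the difference between tissues. In the 2 comparisons between the mutant genotypes no alternative called a member. For forebrain against testes the stricter filter removed Bdnf and Ntf3 and called 5 of 5, and each other alternative called 7. To look for pairing by the numbers in the labels, the mean of its genotype was first subtracted from each gene. What remained correlated between same-numbered libraries of 2 genotypes at -0.037 to 0.146 in forebrain and -0.094 to 0.087 in testes. With 2 WT testes these remainders mirror each other, so the check is weak there. No pairing was seen, and the block stands only for a shared number. Under the replicate block Ntrk3 in Ocn+/- testes turned to 0.099 and Sorcs2 in Ocn-/- testes to -0.001. With library size alone the uncalled changes that turned sign in forebrain were Ntf3 (0.06) and Ntrk2 (0.014) in Ocn+/-, Sort1 (0.019) in Ocn-/-, and Ntrk2 (0.002) and Ngfr (0.006) in the mean contrast, and in testes Bdnf (0.007). Of 1227 values of members under an alternative, 32 turned sign, none of them called before or after, 26 lost and 17 gained a call. With 1 library left out the uncalled changes that turned sign were, in forebrain, Bdnf (-0.178 to 0.418) and Ntf3 (-0.111 to 0.147) in Ocn+/-, and Bdnf in Ocn-/- (-0.055 to 0.452) and in the mean contrast (-0.034 to 0.435). Between the mutant forebrains they were Bdnf (-0.239 to 0.395), Ntrk3 (-0.008 to 0.16), Sort1 (-0.011 to 0.048) and Sorcs2 (-0.113 to 0.067). In testes they were Bdnf (-0.695 to 0.014) and Ntrk3 (-0.538 to 0.381) in Ocn+/-, Bdnf (-0.054 to 0.393) and Sorcs2 (-0.037 to 0.193) in Ocn-/-, Bdnf (-0.24 to 0.106) in the mean contrast and Sort1 (-0.004 to 0.105) between the mutants, and for the difference between tissues Ntrk3 (-0.243 to 0.666). Over all genes the mean contrast called 320 to 2086 genes in forebrain and 125 to 2497 in testes over these alternatives, against 1395 and 1626. The cause of these shifts was not tested. The low counts of Bdnf in both tissues and of Ntf3 in testes limit what could be seen, as do the 2 WT testes, of which leaving out either leaves a single library that is assumed to vary like the other groups. With the longest transcript as length, 3 of 7 members held their rank by level in forebrain and 5 in testes. The counts of pathway genes without forebrain WT 3 were added after the data were seen.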

Other observations

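The GDNF family, whose ligands act through Ret and a GFRα co-receptor and which in testes regulates the germ cell stem pool, lies outside the neurotrophin pathway but serves many of the same neurons. In testes Ret was at 43.6 ± 1.54 CPM (SD, n = 2) in WT, 86.7 ± 10.7 in Ocn+/- and 77.1 ± 15.8 in Ocn-/- (n = 3 each), a rise of 0.91 on the log2 scale (SE 0.16, adjusted p = 0.00237 by edgeR). It was the 1 gene called of 13 tested in the list of GDNF and CNTF ligands and receptors there, with a list median of 0.37 beside -0.0035 over all genes, of which 9.94% were called. Gdnf was at 30.9 ± 3.94, 37.2 ± 3.81 and 43.1 ± 1.75 CPM and Gfra1 at 47.1 ± 0.471, 61.6 ± 11.3 and 62.8 ± 10.5 CPM in WT, Ocn+/- and Ocn-/-, with changes of 0.37 (adjusted p = 0.1) and 0.40 (adjusted p = 0.105) that were not called. In forebrain 0 of 7 genes of the list were called by edgeR, with Ret at 7.52 ± 0.856, 9.35 ± 1.48 and 7.64 ± 0.6 CPM.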
